A study of Mus musculus with 6 samples.

Results

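Fc receptors bind the constant part of antibodies, and Fc receptor-like proteins are their relatives in the immunoglobulin superfamily. The 5 genes described here are those of B lineage cells, Fcrl1, Fcrla, Fcrlb, Fcgr2b and Fcer2a. They were chosen by name, with earlier results of the same comparison known, out of 19937 genes measured with a probe set of 1 gene symbol. Each of the 5 is measured by 1 probe set, so the brightest probe set is also the only probe set. The samples were v-Abl transformed pro-B cells of the mouse, that is, early B lineage cells immortalised by a viral form of the Abl kinase, of genotype Foxo1f/f; ERCre on a background labelled C57/BL6. All 6 samples carried loxP-flanked Foxo1, which encodes a forkhead transcription factor of B cell development, and the ERCre transgene, a fusion of Cre recombinase with an oestrogen receptor domain. The compared groups were 3 samples given 1 µM tamoxifen for 2 days, which activates the recombinase and which the labels call Foxo1 knockout, and 3 untreated samples, which the labels call WT although their genotype is the same. Tamoxifen-treated cells with unfloxed Foxo1 were not analysed here, so the drug, the recombinase and the loss of Foxo1 cannot be told apart. No label says how many lines or clones the samples came from, or that samples of a group were separate cultures, so the p-values reflect the spread of these 6 samples alone, part or all of which may be technical.

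On a mature B cell these receptors tune the response to antigen. Fcgr2b encodes the inhibitory receptor for IgG, whose cytoplasmic tail holds an inhibitory tyrosine motif (ITIM) that recruits the phosphatase SHIP-1 and so dampens antigen receptor signalling. Fcrl1 encodes a surface protein with tyrosine motifs of the activating type (ITAM-like), known as a marker of B cells. Fcer2a encodes CD23, the low-affinity receptor for IgE, which is a C-type lectin and not an immunoglobulin-type receptor, and which marks follicular B cells. Fcrla and Fcrlb encode proteins that stay inside the cell, and in human B cells FCRLA is found in the endoplasmic reticulum and binds immunoglobulin. In textbook accounts most of these genes come up after the pro-B stage.

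Each array gave 1 intensity per probe set on a linear scale for 34760 probe sets. Medians of the arrays were 100.9 to 109.1 and lower quartiles 43.3 to 47.3, and with 3 arrays a group the precision is limited. Foxo1 had intensities of 116, 151 and 134 in tamoxifen samples 1, 2 and 3, against 806, 624 and 512 in untreated samples 1, 2 and 3. Whether its probe set lies in the deleted part was not checked, since no probe sequences were given. Of the pro-B markers, Igll1 and Vpreb1, the surrogate light chain genes, had mean intensities of 4184 and 3467 in tamoxifen samples and 3449 and 3038 in untreated samples. The recombinase gene Rag2 was dim, with means of 31.8 in tamoxifen samples and 46.3 in untreated samples. It measured 32.6, 36.6 and 26.3 in tamoxifen samples and 69.6, 29.4 and 40.1 in untreated samples 1, 2 and 3. All of these but untreated sample 1 lay below the lower quartile of every array. Intensities of different probe sets depend on their probes, so the genes are not ranked against each other by brightness. RNA came from all cells of a culture, so fewer cells that express a gene and less RNA per cell cannot be told apart.

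The start sites of 4 of the genes are shown because Fcrlb, Fcrla and Fcgr2b lie beside each other on mouse chromosome 1 and differ in what was measured after tamoxifen, while Fcrl1, on chromosome 3, had the largest difference of the 5. Each sequence is the 250 bases before an annotated start in RefSeq's table of assembly GRCm38.p6, 5′ to 3′ on the gene's own strand, and capitals mark the motif matches described after them. Other starts of these 4 genes were not searched.
Fcrl1, chr3:87376137-87376386, plus strand: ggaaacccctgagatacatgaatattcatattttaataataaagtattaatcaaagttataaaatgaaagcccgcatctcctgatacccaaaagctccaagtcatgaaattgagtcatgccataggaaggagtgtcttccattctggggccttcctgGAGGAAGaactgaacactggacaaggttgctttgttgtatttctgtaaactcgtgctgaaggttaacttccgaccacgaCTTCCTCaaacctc
Fcrla, chr1:170927584-170927833, minus strand: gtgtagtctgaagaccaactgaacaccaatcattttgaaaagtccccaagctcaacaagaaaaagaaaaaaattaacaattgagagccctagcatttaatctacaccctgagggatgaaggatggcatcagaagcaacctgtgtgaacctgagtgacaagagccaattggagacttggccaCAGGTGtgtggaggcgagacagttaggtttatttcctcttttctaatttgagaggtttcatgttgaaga
Fcrlb, chr1:170912942-170913191, minus strand: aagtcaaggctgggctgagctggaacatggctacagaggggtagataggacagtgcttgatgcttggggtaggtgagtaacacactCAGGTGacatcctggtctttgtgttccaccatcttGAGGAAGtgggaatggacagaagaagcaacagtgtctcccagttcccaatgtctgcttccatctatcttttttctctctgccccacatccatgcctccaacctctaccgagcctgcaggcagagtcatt
Fcgr2b, chr1:170976072-170976321, minus strand: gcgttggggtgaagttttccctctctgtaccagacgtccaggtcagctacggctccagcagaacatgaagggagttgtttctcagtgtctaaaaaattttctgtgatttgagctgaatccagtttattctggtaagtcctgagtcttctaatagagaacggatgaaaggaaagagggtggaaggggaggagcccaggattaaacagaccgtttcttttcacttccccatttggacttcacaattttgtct

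The 5 motifs searched on both strands were GTAAACA (the FOXO core), GAGGAAG (a core bound by the Ets factors PU.1 and Spi-B), CCCNNGGG (the core of EBF1), CAGGTG (an E-box of E2A) and ATTTGCAT (the octamer of Oct factors). The stretch before Fcrl1 holds GAGGAAG at bases -93 to -87 and, on the other strand, at -14 to -8, counted back from the start. Fcrlb holds GAGGAAG at -129 to -123 and CAGGTG at -164 to -159, and Fcrla holds CAGGTG at -69 to -64. No match overlapped another, and the stretch of Fcgr2b has no match, so it has no capitals. Fcer2a has 3 annotated starts in the table, of which 1 holds CAGGTG at -244 to -239 and again at -99 to -94 and the other two hold no match. Among 32851 stretches of the same length before annotated starts, 10.6% hold GAGGAAG, 17.2% CAGGTG, 3.17% GTAAACA, 11.8% CCCNNGGG and 1.60% ATTTGCAT. GTAAACA, CCCNNGGG and ATTTGCAT are in none of the 7 stretches of the 5 genes. These are matches of letters and say nothing of whether a factor binds.

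After tamoxifen Fcrl1, Fcrla and Fcgr2b had higher intensities in every sample than in any untreated sample, while Fcrlb and Fcer2a had overlapping groups. Because the choice of these genes used this comparison, their values are given as a description and without a test of their own. Differences are tamoxifen minus untreated on the log2(value + 16) scale after quantile normalization, with the standard error from limma, and they understate the change of dim genes. Of the 5 genes 0 passed an adjusted p of 0.05 in limma, Benjamini-Hochberg adjusted over all probe sets, where 20 of 34760 probe sets (0.0575%) did. At an unadjusted p under 0.05 limma gave 3 of the 5, against 5.11% of all probe sets. Where the genes themselves were tested, with their probe sets averaged, 2 of the 5 passed, Fcrl1 and Fcrla, as did 0.366% of all genes. Nothing is read from these counts, since the same comparison chose the genes. The 3 genes whose groups did not overlap compare with 5.03% of all probe sets in that direction. The median difference of the 5 was 0.34, where that of all genes was -0.01.

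Fcrl1, the receptor with ITAM-like motifs, showed the largest difference. Its intensity was 144, 143 and 176 in tamoxifen samples 1, 2 and 3, against 69.0, 87.8 and 87.1 in untreated samples 1, 2 and 3. The lowest tamoxifen sample was 1.63 times the highest untreated sample, so a wide gap separated the groups. The means were 155 ± 18.8 in tamoxifen samples and 81.3 ± 10.7 in untreated samples (SD, n = 3 each), a ratio of 1.90. The log2 difference was 0.82 ± 0.11 (SE), the 37th largest in either direction among the 19937 genes. Its untreated values lay below every array's median and its tamoxifen values above it.

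Fcrla, the intracellular relative, had the narrowest spread relative to its difference. It measured 396, 342 and 358 in tamoxifen samples 1, 2 and 3, against 249, 262 and 234 in untreated samples 1, 2 and 3. Within a group the highest sample was 1.16 times the lowest after tamoxifen and 1.12 times in untreated cells, while the lowest tamoxifen sample was 1.30 times the highest untreated sample. The means were 365 ± 27.7 in tamoxifen samples and 249 ± 14.0 in untreated samples (SD, n = 3 each), and the log2 difference was 0.50 ± 0.06 (SE).

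Fcgr2b, the inhibitory IgG receptor, had a smaller difference, and its groups lay close to each other. Its intensity was 440, 368 and 391 in tamoxifen samples 1, 2 and 3, against 357, 300 and 271 in untreated samples 1, 2 and 3. Sample 1 was the highest of its group in both groups, and the lowest tamoxifen sample was only 1.03 times the highest untreated sample. The means were 400 ± 37.0 in tamoxifen samples and 309 ± 43.8 in untreated samples (SD, n = 3 each), with a log2 difference of 0.34 ± 0.10 (SE). The ligand-binding part of Fcgr2b closely resembles that of the activating receptor gene Fcgr3 in mouse, so the 2 probe sets may share signal and both values are uncertain. Fcgr3 itself measured 194, 142 and 131 in tamoxifen samples and 195, 151 and 179 in untreated samples 1, 2 and 3, with a log2 difference of -0.18 ± 0.16 (SE).

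Fcrlb, the other intracellular relative, spread more within groups than between them. It measured 124, 171 and 184 in tamoxifen samples 1, 2 and 3, against 172, 130 and 214 in untreated samples 1, 2 and 3. The highest and the lowest of the 6 values lay in different groups, and the ranges overlapped over most of their width. The means were 159 ± 31.7 in tamoxifen samples and 172 ± 42.3 in untreated samples (SD, n = 3 each), with a log2 difference of -0.10 ± 0.20 (SE).

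Fcer2a, the gene of CD23, was near the lower quartile of the arrays in every sample. Its intensity was 44.1, 51.7 and 51.0 in tamoxifen samples 1, 2 and 3, against 47.1, 47.2 and 50.8 in untreated samples 1, 2 and 3. The lowest value and the highest both came from tamoxifen samples, so the untreated range lay inside the tamoxifen range. The means were 48.9 ± 4.24 in tamoxifen samples and 48.4 ± 2.13 in untreated samples (SD, n = 3 each), with a log2 difference of 0.02 ± 0.06 (SE). At this brightness a difference in CD23 RNA may not be detectable on these arrays.

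**Figure D1:**
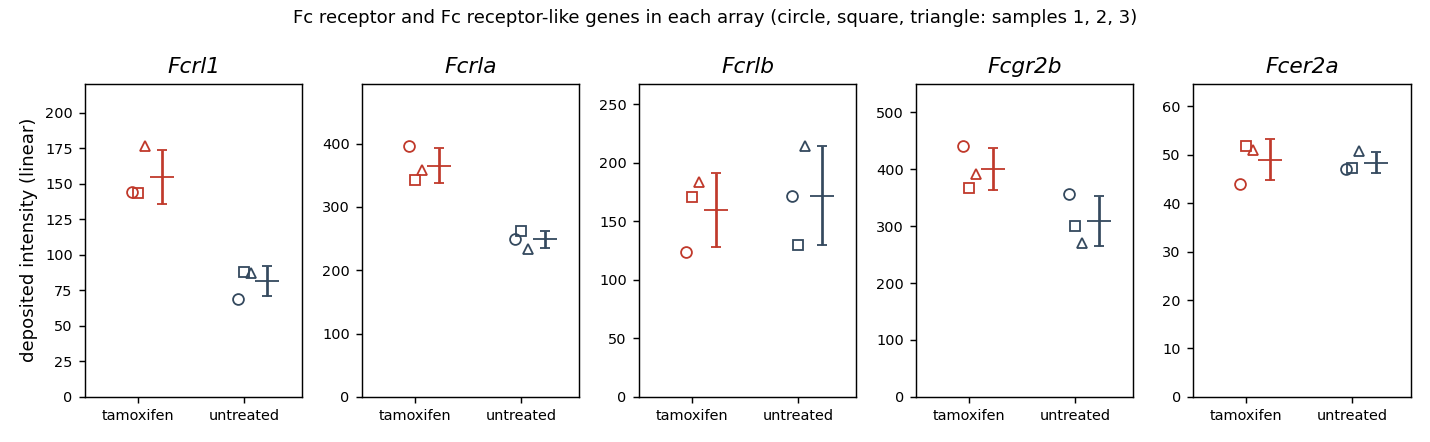
Deposited linear intensity of each gene (vertical axis, from 0, scaled per gene) in the 3 tamoxifen and 3 untreated samples, with markers for samples 1, 2 and 3 and the mean and SD of each group beside them. The groups of Fcrl1, Fcrla and Fcgr2b do not overlap, with the closest approach in Fcgr2b (368 in the lowest tamoxifen sample and 357 in the highest untreated sample), and those of Fcrlb and Fcer2a do.

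Leaving out single arrays moved Fcrlb most of the 5 genes. The log2 difference of Fcrla ran from 0.47 to 0.53 over the 6 fits with 1 array left out, that of Fcrl1 from 0.74 to 0.88 and that of Fcgr2b from 0.29 to 0.43. All these differences stayed positive, which groups without overlap leave no room to change. Fcrlb ran from -0.27 without untreated sample 2 to 0.07 without untreated sample 3 and kept its sign in 4 of the 6 fits. Fcer2a ran from 0.00 to 0.06, and without tamoxifen sample 1, its lowest sample, its groups no longer overlapped.

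**Figure D2:**
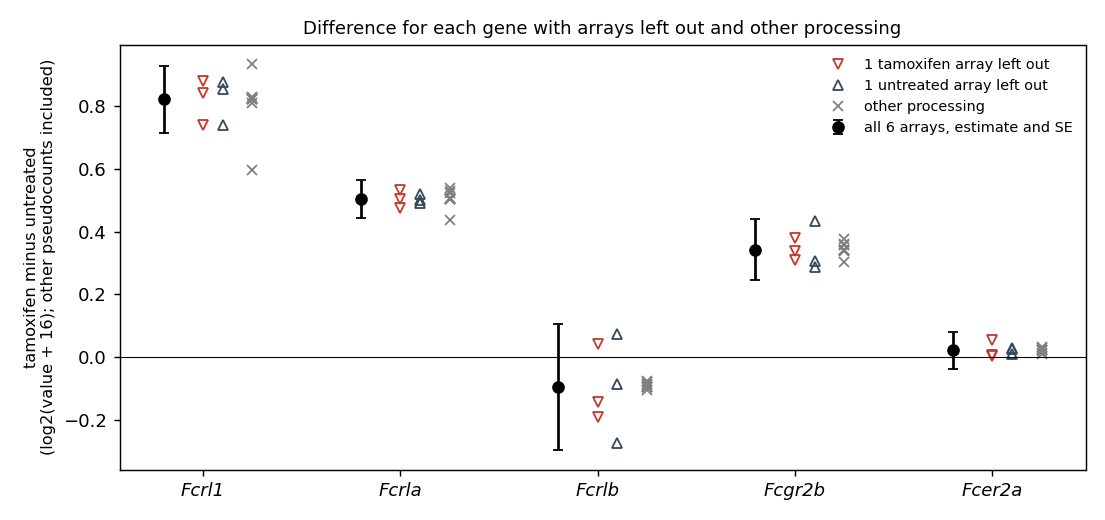
Tamoxifen minus untreated difference of each gene (vertical axis, log2 scale) from all 6 arrays with its SE (black), with 1 array left out (triangles) and under the other processing settings (crosses). Fcrl1, Fcrla and Fcgr2b stay above 0 throughout, whereas Fcrlb lies on both sides of 0, between -0.27 and 0.07.

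The genes beside the 5 did not share a common difference. On chromosome 1 the order of genes with a probe set is Atf6, Dusp12, Fcrlb, Fcrla, Fcgr2b, Fcgr4, Fcgr3 and Cfap126. Within this run Fcrla and Fcgr2b had positive differences of 0.50 and 0.34, while Fcrlb on their side towards Dusp12 had -0.10 and Fcgr4 on the other side had 0.06 ± 0.07 (SE). Dusp12, a dual-specificity phosphatase, had -0.04 ± 0.09, Cfap126, a cilium protein, 0.05 ± 0.11, and Atf6, a sensor of endoplasmic reticulum stress, 0.12 ± 0.19 (SE). On chromosome 3 the closest neighbours of Fcrl1 were Cd5l, which encodes a secreted macrophage protein, at -0.18 ± 0.08 and Fcrl5, a receptor-like gene of innate-type B cells, at 0.07 ± 0.07 (SE). Farther out, Etv3, an Ets-family repressor, had 0.35 ± 0.10 and Kirrel, a cell adhesion gene, 0.36 ± 0.11 (SE), both without overlap between groups and with limma adjusted p = 0.691 and 0.698. The remaining chromosome 3 genes, Fcrls and Etv3l, had 0.05 and -0.04. Around Fcer2a on chromosome 8, Mcemp1, Trappc5, Clec4g, Cd209a and Cd209e lay between -0.14 and 0.01. Clec4g, at -0.10 ± 0.06 (SE), was lower after tamoxifen without overlap between groups. Such separation was found in 1108 of all 19937 genes in the higher direction and 1132 in the lower. No neighbour outside the 5 passed limma, where the lowest adjusted p was 0.691.

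**Figure D3:**
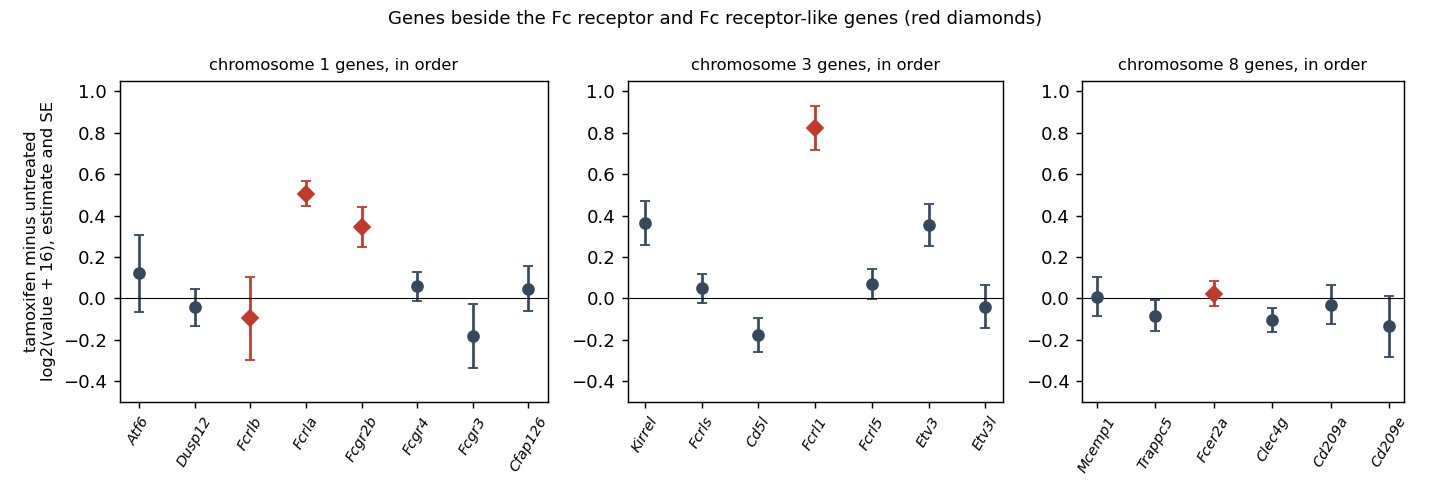
Tamoxifen minus untreated difference (log2(value + 16), with SE) of the genes with a probe set beside each Fc receptor or Fc receptor-like gene, in their order along mouse chromosomes 1, 3 and 8. The red diamonds of Fcrla (0.50), Fcgr2b (0.34) and Fcrl1 (0.82) lie above 0 by more than their SE, and those of Fcrlb and Fcer2a lie within their SE of 0.

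The other Fc receptor and Fc receptor-like genes showed small differences. Of 13 measured, 8 had a positive and 5 a negative difference, the median was 0.05, and limma called 0 at an adjusted p of 0.05 and 0 at an unadjusted p under 0.05. Fcrl5, described above beside Fcrl1, had intensities of 57.5, 62.8 and 59.9 in tamoxifen samples and 49.9, 58.3 and 64.4 in untreated samples 1, 2 and 3. Those values overlap, as did those of Fcrl6 (-0.06 ± 0.07, SE) and of Fcrls (0.05 ± 0.07, SE), a marker of microglia in mouse. The activating IgG receptor Fcgr1 was the only gene of the 13 without overlap, at 86.3, 85.0 and 92.1 in tamoxifen samples and 79.6, 75.8 and 83.4 in untreated samples, a log2 difference of 0.14 ± 0.06 (SE). Of all 19937 genes, 1108 were higher without overlap and 1132 lower, so nothing is read from this 1 gene. Fcer1g, the signalling chain that activating Fc receptors need, had -0.02, and the chains of the high-affinity IgE receptor, Fcer1a and Ms4a2, had 0.05 and 0.00 at intensities below the lower quartile of every array. The IgM receptor gene Fcmr had -0.14 ± 0.11 (SE), Fcamr, for IgA and IgM, 0.05, and Pigr, which carries antibodies across epithelia, 0.12. Trim21, a cytosolic antibody receptor, had 0.12 ± 0.11 (SE), with tamoxifen sample 1 (455) apart from samples 2 and 3 (324 and 325). Fcgrt, the neonatal Fc receptor, has no probe set with a single symbol here and was not analysed.

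The signalling partners of these receptors had differences in both directions, and none passed the test. Of 16 measured kinases, phosphatases and adaptors, 10 had a positive and 6 a negative difference, with a median of 0.04. Limma called 0 of the 16 at an adjusted p of 0.05, and at an unadjusted p under 0.05 it gave 3 higher and 2 lower, where it gave 2.96% of all genes higher and 2.19% lower. Inpp5d, which encodes SHIP-1, the phosphatase recruited by Fcgr2b, measured 1495, 1169 and 1226 in tamoxifen samples, against 1701, 1363 and 1229 in untreated samples 1, 2 and 3. Its groups overlapped and its log2 difference was -0.14 ± 0.11 (SE). Ptpn6, the phosphatase SHP-1 that binds other inhibitory receptors, had the largest difference of the 16, at 1907, 1556 and 1700 in tamoxifen samples and 1267, 1156 and 1095 in untreated samples. Its groups did not overlap, with a log2 difference of 0.53 ± 0.07 (SE) and a limma adjusted p = 0.132. Blk, a Src-family kinase of B cells, had -0.46 ± 0.18 and Vav1, an exchange factor downstream of the antigen receptor, 0.39 ± 0.15 (SE), with limma adjusted p = 0.945 and 0.927.

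The circuit of CD23 showed no called gene either. Of 13 measured genes that bind CD23, shed it or induce it, 12 had a positive difference, as did 44.5% of all genes. The median was 0.05, and limma called 0 at an adjusted p of 0.05 and 0 at an unadjusted p under 0.05. Cr2, which encodes the complement receptor CD21, a ligand of CD23, measured 155, 274 and 242 in tamoxifen samples and 93.9, 179 and 169 in untreated samples 1, 2 and 3. Sample 1 was the lowest of its group in both groups, the groups overlapped, and the log2 difference was 0.57 ± 0.27 (SE). Adam10, the main protease that sheds CD23, had 0.08 ± 0.06 (SE), and Il4ra and Stat6, through which interleukin-4 induces CD23, had 0.01 ± 0.08 and 0.18 ± 0.09 (SE). Cd40, a co-stimulatory receptor, had 0.16 ± 0.08 (SE) and Itgb2 had 0.14 ± 0.06 (SE). After normalization the groups of these 2 genes did not overlap, as in 1108 of all 19937 genes in that direction. The deposited intensities of Cd40 did overlap, at 140, 144 and 156 in tamoxifen samples and 131, 116 and 143 in untreated samples 1, 2 and 3.

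Among markers of mature B cells, the stage at which these receptors are best known, 14 of 15 measured genes had a positive difference, with a median of 0.39. Of all genes 44.5% had a positive difference. The exception was Bach2, at -0.43 ± 0.17 (SE), whose groups did not overlap. At an unadjusted p under 0.05 limma gave 8 higher and 1 lower, where it gave 2.96% of all genes higher and 2.19% lower. In limma 2 of the 15 rose at an adjusted p of 0.05, Spib and Tnfrsf13c, as did 0.0374% of all probe sets. Both calls ended under the replicate block, with limma adjusted p = 0.0783 for Spib and 0.0936 for Tnfrsf13c. After scaling to a common median both just missed the threshold, each with a limma adjusted p = 0.05003. With 1 array left out Spib passed in 1 of 6 fits, that without untreated sample 1, and Tnfrsf13c in 0 of 6. Over all 15 alternatives the limma adjusted p ran from 0.000712 to 0.142 for Spib and from 0.00148 to 0.146 for Tnfrsf13c. Spib, an Ets-family factor of B cells, measured 443, 383 and 385 in tamoxifen samples and 172, 143 and 150 in untreated samples 1, 2 and 3 (log2 difference 1.29 ± 0.08, SE, limma adjusted p = 0.0138). Tnfrsf13c, the BAFF receptor, had 0.98 ± 0.07 (SE, limma adjusted p = 0.0223). Cd74, the invariant chain of MHC class II, had the largest difference of the list, 1.56 ± 0.21 (SE), with a limma adjusted p = 0.132. The list was chosen with these results known and is no independent evidence of a direction. Markers of germinal centre B cells, where FCRLA is abundant in human, had 1 of 5 positive, a median of -0.04 and 0 called by limma at an adjusted or unadjusted p under 0.05. Of these Mybl1, a Myb-family factor, had -0.42 ± 0.41 (SE), Gcsam, a germinal centre signalling protein, 0.14 ± 0.09 and S1pr2, a confinement receptor, -0.08 ± 0.07 (SE). Mybl1 measured 266, 543 and 550 in tamoxifen samples and 341, 807 and 710 in untreated samples 1, 2 and 3. Its sample 1 was the lowest in both groups. Among 12 pro-B markers 5 had a positive and 7 a negative difference, with a median of -0.05, and limma called 0 at an adjusted p of 0.05, with 5 higher and 2 lower at an unadjusted p under 0.05, against those same shares of 2.96% and 2.19% over all genes. Dntt, which adds bases at V(D)J joints, had -1.26 ± 0.25, Cd79b, a B cell receptor chain, 0.52 ± 0.07, and Ebf1, a B lineage factor, -0.51 ± 0.07 (SE), with limma adjusted p = 0.365, 0.134 and 0.169.

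Fc receptors are also borne by myeloid cells, mast cells and NK cells, and markers of those cells differed little between the groups. The summed intensity of 11 myeloid markers was 860 to 869 in tamoxifen samples and 810 to 886 in untreated samples, with a median log2 difference of 0.02. That of 6 mast cell and basophil markers was 303 to 332 in tamoxifen samples and 291 to 358 in untreated samples, and that of 6 NK cell markers 315 to 368 in tamoxifen samples and 343 to 397 in untreated samples. For 6 T cell markers it was 432 to 502 in tamoxifen samples and 429 to 523 in untreated samples. The 4 plasma cell markers summed to 741 to 906 in tamoxifen samples and 728 to 747 in untreated samples. All 5 of these ranges overlapped between the groups. The 6 markers of plasmacytoid dendritic cells summed to 1328 to 1441 in tamoxifen samples and 1256 to 1320 in untreated samples, without overlap, and their part in the values of the Fc receptor genes was not tested. Tlr9, a nucleic acid sensor that B cells also express, had the largest difference of the last list, 0.50 ± 0.16 (SE), with a limma adjusted p = 0.745. It measured 183, 224 and 248 in tamoxifen samples and 163, 119 and 165 in untreated samples 1, 2 and 3. The rest of that list had smaller differences in both directions, Tlr7 0.14, Irf8 0.09, Siglech 0.04, Bst2 -0.03 and Tcf4 -0.10. Limma called 0 genes of these 6 lists at an adjusted p of 0.05. At an unadjusted p under 0.05 it gave Klrb1c (-0.19), an NK receptor gene, lower and Tlr9 higher. Over all genes it gave 2.96% higher and 2.19% lower, so nothing is read from these genes. Of the defining markers, the myeloid genes Csf1r and Lyz2 had mean intensities of 63.8 and 46.1 in tamoxifen samples and 70.6 and 55.7 in untreated samples, and the mast cell gene Cpa3 had 28.8 in tamoxifen samples and 27.8 in untreated samples, all below the array medians. Other markers of these lists were brighter. The myeloid gene Cd68 had means of 216 in tamoxifen samples and 213 in untreated samples. Gata2, of the mast cell and basophil list, had 128 and 136, and both genes were above every array's median. The myeloid gene Elane, at 107 and 99.8, was near the medians.

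**Figure D4:**
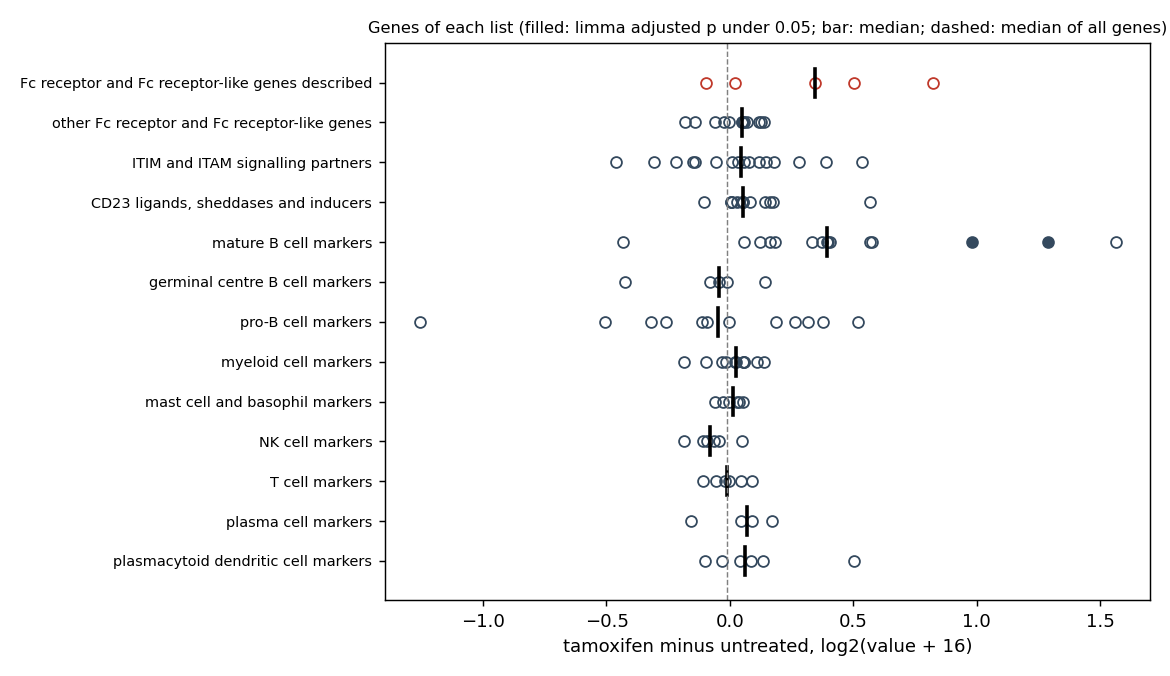
Tamoxifen minus untreated difference (horizontal axis, log2(value + 16)) of every measured gene of each list, with the median as a bar, the median of all genes (-0.01) as a dashed line and filled circles for genes past the limma threshold. The 5 Fc receptor and Fc receptor-like genes run from -0.10 to 0.82 and the other 13 from -0.18 to 0.14, and the filled circles are Spib and Tnfrsf13c.

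The genes whose values over the 6 samples were most like each of the 5 were found by Pearson correlation on the normalised log2 values, among named genes at or above the median brightness. The 6 points are 3 samples in each of 2 groups, so r takes in the difference between the group means, and it is given as a description. For Fcrl1 they were Cd2, a lymphocyte adhesion molecule (r = 0.996, n = 6), Msl2, a ubiquitin ligase (0.987), and Bcar3, an adaptor (0.986). Bcar3 had a log2 difference of 1.38 ± 0.10 (SE) with a limma adjusted p = 0.0194 in the main fit. Under the replicate block 0 probe sets were called. Cd2 measured 3540, 3260 and 3360 in tamoxifen samples and 2746, 2861 and 2688 in untreated samples, a log2 difference of 0.28. For Fcrla they were Tspan32, a tetraspanin of blood cells (r = 0.998, n = 6), Milr1, an inhibitory immunoglobulin-type receptor known from mast cells (0.996), and Sh3bp5, which binds the kinase Btk (0.994). Milr1 measured 930, 752 and 757 in tamoxifen samples and 532, 557 and 483 in untreated samples, a log2 difference of 0.60 ± 0.07 (SE) with a limma adjusted p = 0.0730. For Fcgr2b they were Sdc4, a cell surface proteoglycan (r = 0.995, n = 6), Bsdc1 (0.995) and Mapk14, a stress-activated kinase (0.993). The matches of Fcrlb, namely Mir187, Sncg and Elk4 (r from 0.994 to 0.999, n = 6), and those of Fcer2a, namely Hs3st3b1, Crtc3 and Nrbf2 (0.982 to 0.989), had log2 differences between -0.11 and 0.06.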

How the data were processed

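Total RNA of the 6 samples was labelled with biotin and hybridised to gene-level arrays, per the labels' protocols. The deposited values are linear intensities that the authors had already summarised per probe set. Their background correction, summarisation and normalization are not given in the sources used here, nor are scan dates or slides. Titles gave the groups.

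The values were put on a log2(value + 16) scale, quantile normalised and tested two-sided with limma 3.58.1 (lmFit, eBayes; R 4.3.3), Benjamini-Hochberg adjusted over all 34760 probe sets at a threshold of 0.05, a fit tested on simulated data. Printed intensities are as deposited, while overlap between the groups of a gene was counted on the normalised values. A table of the array platform named probe sets with 1 symbol (21640), and the brightest stood for each gene, giving 19937 genes. All 5 genes matched.

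The 5 genes, all other lists and the naming rule were chosen with earlier results of these data known. The rule named all 5, all measured Fc receptor relatives, the called genes and up to 3 with the largest differences of each other list, the 3 most alike genes and the nearest 3 coding genes on each side. Values of Inpp5d, Adam10, Il4ra, Igll1, Vpreb1, Rag2, Csf1r, Lyz2 and Cpa3 were added for their roles or to check a label. Those of Cd68, Gata2, Elane, Bach2, Itgb2, Irf8, Siglech and Bst2 were added to complete what is said of their lists. No set test was run. Alternatives were the replicate block, each array left out, other normalizations, a filter on dim probe sets, pseudocounts of 1 and 64, a robust intensity trend and averaged probe sets. Figures were drawn with matplotlib 3.10.9.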

Additional observations from a re-analysis of the deposited data

How the results depend on the processing

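The 15 alternatives left 3 of the 5 genes, Fcrl1, Fcrla and Fcgr2b, with groups that did not overlap, and without tamoxifen sample 1 Fcer2a joined them (4). The replicate block, the robust intensity trend, averaged probe sets and the filter on dim probe sets could not change this. Each of the 5 genes that was tested kept its values there. Leaving out an array also gives groups already apart little room to overlap. Of 74 alternative values of the 5 genes, 72 moved by less than the spread between replicates. The others came with a pseudocount of 64, where the log2 difference was 0.60 for Fcrl1 and 0.44 for Fcrla. Under the block, the trend, the averaging and the dim filter the differences could not move either. Those values count among the 72 but were the same by design. With the probe sets of each gene averaged and 19937 genes tested, limma called 2 of the 5, Fcrl1 and Fcrla, where 73 genes (0.366%) passed. All other alternatives called 0 of the 5, with 3 at an unadjusted p under 0.05. Fcer2a was not tested with dim probe sets left out.

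The count of called probe sets, 20 with all arrays, ran from 0 to 6 with 1 array left out (6 without untreated sample 1, 2 without tamoxifen sample 1, 0 in the other 4 fits, which had 1360 or more at an unadjusted p under 0.05). It was 0 under the replicate block (2525 at an unadjusted p under 0.05), 3 after scaling to a common median, 12 with no further normalization, 11 with a pseudocount of 1, 12 with a robust intensity trend and 46 with dim probe sets left out. The share of these calls that were raised was 65.0% with all arrays and 83.3% with no further normalization. Why the counts differ was not tested. Deviations of same-numbered samples correlated at 0.256, 0.0547 and 0.302. Untreated samples 1 and 3 correlated best with the tamoxifen sample of the same number, but untreated sample 2 with tamoxifen sample 1 (0.103). These values do not settle whether the numbers pair the samples, so the main fit has no pairing and the block is an alternative. The labels describe treated and untreated portions of the cells without tying them to the numbers. Of 180 alternative list medians, 14 moved by more than the spread between replicates. The replicate block and the robust intensity trend could not move a median. With dim probe sets left out, and so fewer genes per list, the median was -0.03 for the other Fc receptor and Fc receptor-like genes, -0.25 for germinal centre, 0.19 for pro-B, -0.06 for mast cell and basophil and 0.05 for NK cell markers, and the pro-B median was 0.10 without untreated sample 1.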
